A study of Mus musculus with 9 samples.

Results

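The mitochondrial respiratory chain and ATP synthase were followed through 83 genes, read by 104 of the 25697 probes on the array, out of 16593 named genes. A probe belonged to the set when its annotated gene symbol began with Ndufa, Ndufb, Ndufc, Ndufs or Ndufv (complex I), Uqcr (complex III), Cox4 to Cox8 without Cox6a1 and Cox6a2 (complex IV) or Atp5 (complex V, the ATP synthase), or was one of the Sdh subunit genes (complex II). The names alone chose the members, so the set also holds complex I assembly factors (the Ndufaf genes), the supercomplex assembly factor Cox7a2l and Ndufs5-ps, a pseudogene by its symbol. Genes of these complexes with no named probe, Sdha among them, were not analysed here.

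RNA came from salivary gland cancer stem cells of C57BL/6 mice, isolated from primary material and grown in medium with serum replacement. Cells were exposed for 24 h to LF3, to ICG-001 or to the solvent DMSO, with 3 arrays per group and 9 in all; the labels give no dose, and no genotype beyond the strain is stated. The series calls both compounds Wnt inhibitors. LF3 acts on the contact of β-catenin with the DNA-bound factor TCF4, and ICG-001 on its contact with the coactivator CBP. Separate cultures are not stated for the 3 arrays of a group, so p-values reflect the spread among these arrays alone, and that spread may be technical.

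The respiratory chain passes electrons from NADH (complex I) and succinate (complex II) through ubiquinone to complex III, through cytochrome c to complex IV, and on to oxygen. Complexes I, III and IV pump protons across the inner mitochondrial membrane, and the ATP synthase uses the return flow to make ATP. Most subunits are encoded in the nucleus, and those are the ones measured here; a smaller set is encoded by mitochondrial DNA.

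The labelled cell type was set against its markers. Among salivary epithelial markers, Wfdc2, Aqp5, Slc12a2 and Krt8 were measured, while 5 of 9 on the array (Krt18, Krt5, Krt14, Krt19 and Cdh1) were detected on no array. Of 8 stem and progenitor markers, Cd44, Itgb1, Sox2, Sox9 and Itga6 were measured and Cd24a, Prom1 and Aldh1a1 were not detected. The summed normalized intensity of the measured epithelial markers was 7500 to 8220 on LF3 arrays and 6770 to 7300 on ICG-001 arrays, against 9730 to 11700 on DMSO arrays. That of the stem markers was 682 to 780 with LF3 and 1050 to 1190 with ICG-001, against 827 to 850 with DMSO. Taken singly against DMSO (adjusted p under 0.05, limma), 0 epithelial markers rose and 1 fell with LF3, and 1 rose and 2 fell with ICG-001. For the stem markers, 1 rose and 0 fell with LF3, and 2 rose and 0 fell with ICG-001. The sums thus hide genes that moved the other way. Over all genes tested, 22.4% passed with LF3 and 37.7% with ICG-001. Of markers of other cell types, the leukocyte marker Cd74 had normalized intensities of 27 to 28.6 with LF3 and 43.3 to 57 with ICG-001, against 21.1 to 23.1 with DMSO, and was detected on all ICG-001 arrays and on no other array, while Ptprc and Cd3e were detected on none. The fibroblast markers Pdgfra and Col1a1 summed to 117 to 160 with LF3 and 122 to 130 with ICG-001, against 142 to 210 with DMSO. Col1a1 was detected on 2 LF3 arrays, 0 ICG-001 arrays and 3 DMSO arrays, and Col1a2, Dcn and Lum on none. No marker among 4 endothelial and 4 adipocyte genes was detected. The part of these shifts in the results that follow was not tested, and in bulk RNA fewer cells of a type cannot be told apart from less RNA per cell. Mean signal per array ran from 340.0 to 467.3, and log2 intensities correlated at 0.9873 or above between arrays of a group.

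Of the 83 genes, 74 were tested: a gene was tested when at least 3 of the 9 arrays detected it (detection p-value under 0.01), and 71 were detected on all 9. The other 9 genes were detected on no array: Ndufs1 (a core subunit of complex I), Uqcrfs1 (the Rieske iron-sulphur protein) and Uqcrq of complex III, Cox4i2, Cox6b2, Cox7b2, Cox8b and Cox8c of complex IV, and Atp5k of the ATP synthase. Absence of signal from a probe sets no level for its gene. Levels below are background-corrected, quantile-normalized log2 intensities, differences are log2 differences with their standard error (SE), and a gene with several probes is given by its brightest. A gene passed where the adjusted p-value (limma, two-sided, Benjamini-Hochberg over all probes kept) was under 0.05.

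With LF3, 7 of the 74 genes passed against DMSO, 4 higher and 3 lower, which is 9.46% of the set, beside 22.4% of all 7354 genes tested (11% higher and 11.4% lower). The 3 that fell were Uqcrh, Cox7a2 and Ndufv3; the 4 that rose were Ndufaf5, Ndufs7, Ndufb4 and Ndufaf4, all of complex I or its assembly. Differences ran from -0.73 to 0.63 with a median of 0.09, beside 0.01 over all genes, and 3 genes (4.05%) lay beyond 0.5 in size, beside 13.6% of all genes. At an unadjusted p under 0.05 there were 17 genes, a count not made over all genes, so it cannot be read as high or low. The LF3 and DMSO arrays did not overlap for 21 (28.4%, beside 36.8% of all genes). The split depended on scaling: it was 0 higher and 7 lower when arrays were scaled to the median of all probes, a scaling that put the median over all genes at -0.24, and 13 higher and 2 lower when they were scaled to the median of probes detected on all arrays. Under the first of these scalings none of the 4 rises passed (0.17 to 0.32, adjusted p 0.13 to 0.463). The count was 4 without DMSO array 2.

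With ICG-001, 21 of the 74 genes passed against DMSO, 7 higher and 14 lower. This is 28.4% of the set, beside 37.7% of all genes tested (18.8% higher and 18.9% lower). The lower calls include Cox7a1, which no ICG-001 array detected, so its call rests on values below detection. Among members detected on arrays of both groups, Uqcrh, Cox7a2, Ndufb2 and Sdhd fell most, and Ndufaf4 rose most. The median difference was -0.05, beside 0 over all genes, with a range from -1.32 to 0.94; 12 genes (16.2%) lay beyond 0.5 in size, beside 24.8% of all genes. The ICG-001 and DMSO arrays did not overlap for 35 genes (47.3%, beside 50.7% of all genes). Scaled to the median of all probes, which put the median over all genes at -0.10, the split was 1 higher and 16 lower, and Ndufaf4 alone of the 7 rises still passed. The order of the shares depended on the filter: with no filter on dim probes, 27.7% of 83 members passed, beside 15.4% of all 16593 genes.

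Between the inhibitors, 28 of the 74 genes passed, 22 higher with LF3 than with ICG-001 and 6 lower. This is 37.8% of the set, beside 39.7% of all genes tested. The higher calls came to 22 of 74 where 20.2% of all genes were higher, and the lower calls to 6 of 74 where 19.5% were lower. Among the higher calls are Cox7a1 and Ndufb11, which no ICG-001 array detected, so their calls rest on values below detection. The median difference was 0.10, beside 0 over all genes. Differences ran from -0.52 to 1.29. Scaled to the median of all probes, which put the median over all genes at -0.14, 9 genes were higher and 6 lower, and scaled to the median of probes detected on all arrays, 25 were higher and 2 lower. With no filter on dim probes, 33.7% of 83 members passed, beside 16.4% of all 16593 genes. The 3 comparisons share arrays pairwise, so their values are given side by side and their likeness is no separate result. Against DMSO, 5 genes passed in the same direction with both inhibitors and 1 (Ndufs7) in opposite directions. A further 1 (Ndufb4) passed with LF3 alone, 15 with ICG-001 alone, and 52 with neither. The same classes were not counted over all genes, so these numbers cannot be read as high or low.

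**Figure D1:**
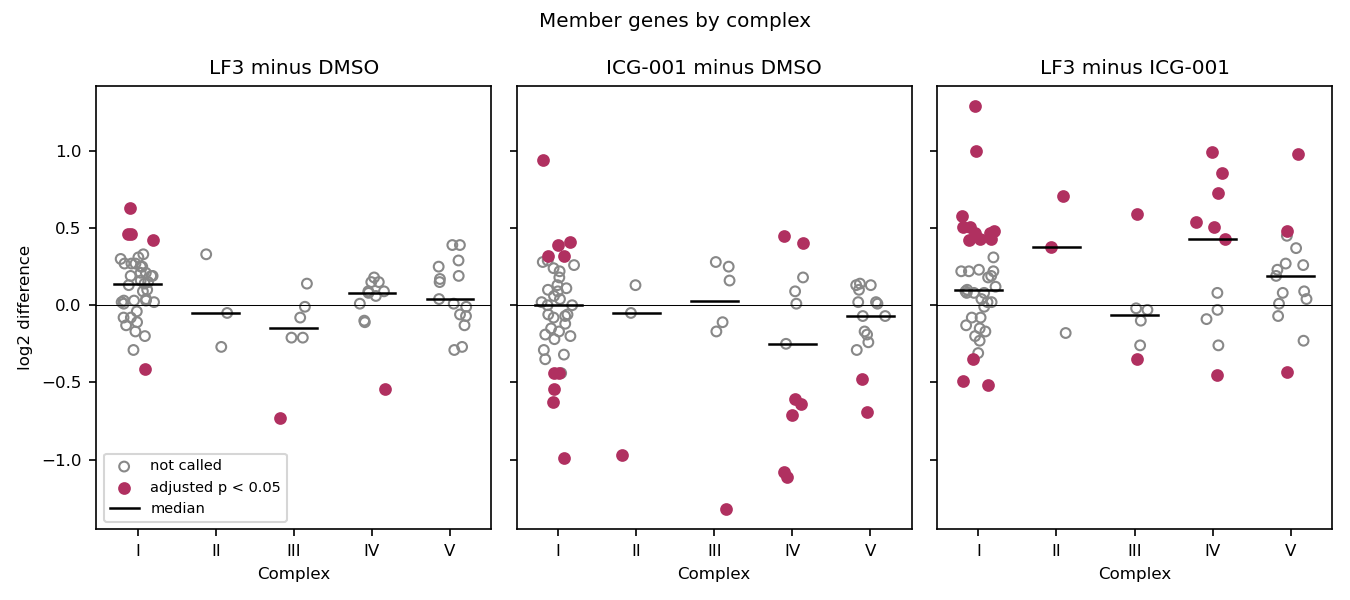
Log2 difference of each of the 74 tested genes by complex, in LF3 minus DMSO, ICG-001 minus DMSO and LF3 minus ICG-001; filled points passed at an adjusted p under 0.05, open points did not, and the horizontal line is the median of the complex. With LF3 all genes lie between -0.73 and 0.63, while with ICG-001 complex IV has 5 filled points below 0 and 2 above; the value of Cox7a1 with ICG-001, where it was not detected, is the fitted one.

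Promoter sequence is shown for 4 genes, picked after their values were seen as examples of the different responses: Uqcrh (lower with both inhibitors), Cox6b1 (higher with ICG-001), Ndufaf4 (higher with both) and Ndufs7 (higher with LF3 and lower with ICG-001). Each is the 250 bases before the annotated start, 5′ to 3′ on the gene's strand, from RefSeq on build GRCm38.p6, at chr4:116075071-116075320 (minus strand) for Uqcrh, chr7:30626115-30626364 (minus) for Cox6b1, chr4:24897833-24898082 (plus) for Ndufaf4 and chr10:80249199-80249448 (plus) for Ndufs7. Capitals mark matches to a motif of the factor NRF1 (GCGCA, then any base, then GCGC) or to CCGGAAG, a motif of ETS factors such as GABP; both families are known for sites in promoters of nuclear genes for mitochondrial proteins.
Uqcrh: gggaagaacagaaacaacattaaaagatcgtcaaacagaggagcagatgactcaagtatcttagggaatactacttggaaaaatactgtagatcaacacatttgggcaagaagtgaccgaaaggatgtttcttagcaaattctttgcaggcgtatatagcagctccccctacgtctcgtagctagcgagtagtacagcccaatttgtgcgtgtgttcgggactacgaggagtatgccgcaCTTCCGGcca
Cox6b1: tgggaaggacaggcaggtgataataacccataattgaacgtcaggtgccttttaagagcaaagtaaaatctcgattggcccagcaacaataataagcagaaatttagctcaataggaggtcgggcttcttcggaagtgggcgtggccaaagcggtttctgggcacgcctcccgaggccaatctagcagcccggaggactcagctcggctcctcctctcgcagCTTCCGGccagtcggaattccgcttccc
Ndufaf4: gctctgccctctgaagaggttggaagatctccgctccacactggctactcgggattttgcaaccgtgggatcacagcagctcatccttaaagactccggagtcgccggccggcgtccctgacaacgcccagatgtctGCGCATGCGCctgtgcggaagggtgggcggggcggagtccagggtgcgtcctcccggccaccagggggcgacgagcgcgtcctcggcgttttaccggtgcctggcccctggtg
Ndufs7: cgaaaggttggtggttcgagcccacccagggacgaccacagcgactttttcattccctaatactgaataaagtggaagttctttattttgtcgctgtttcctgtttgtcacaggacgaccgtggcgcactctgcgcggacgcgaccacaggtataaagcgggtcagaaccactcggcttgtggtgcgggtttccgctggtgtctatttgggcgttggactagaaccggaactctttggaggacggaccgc
Uqcrh and Cox6b1, which moved in opposite directions with ICG-001, each held the ETS motif on the reverse strand, beginning 10 and 28 bases before the start. Ndufaf4 held the NRF1 motif, beginning 113 bases before the start, and Ndufs7 held neither set of letters in this window.

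Both strands were searched for the 2 motifs and for TATAAA, and the motifs do not overlap in the sequences shown. Of the 74 tested genes 64 had a promoter in the table. The NRF1 motif was in 9 of these (14.1%), beside 10.6% of the promoters of all genes tested and 4.23% of all 27025 in the table. The ETS motif was in 12 (18.8%), beside 17.6% and 7.83%, and TATAAA in 5 (7.81%), beside 7.72% and 14.3%. Among genes that fell with ICG-001, 2 of 11 held the ETS motif and 2 of 11 the NRF1 motif; among those that rose, the counts were 2 of 7 and 1 of 7. A match is a description of these letters, not a site.

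Complex I, the NADH dehydrogenase, gave 39 tested genes, of which 4 rose and 1 fell with LF3, and 5 rose and 5 fell with ICG-001. These are 12.8% and 25.6% of its genes, beside 22.4% and 37.7% of all genes tested. The directions moved with the scaling: to the median of all probes there were 0 higher and 2 lower with LF3 and 1 and 7 with ICG-001, and to that of probes detected on all arrays 8 and 0 with LF3. With ICG-001 the counts were 1 and 3 without ICG-001 array 3 and 2 and 4 without DMSO array 2, and with LF3 2 and 0 without DMSO array 2. Ndufs7, a core subunit that carries an iron-sulphur cluster close to the ubiquinone site, read 11.45, 11.52 and 11.44 on LF3 arrays and 10.61, 10.34 and 10.47 on ICG-001 arrays, against 11.08, 11.00 and 10.96 on DMSO arrays. The 3 groups did not overlap, with LF3 highest, DMSO between and ICG-001 lowest. The difference from DMSO was 0.46 with LF3 (1.38-fold, adjusted p = 0.012) and -0.54 with ICG-001 (1.45-fold lower, adjusted p = 0.00221), with an SE of 0.11. LF3 exceeded ICG-001 by 1.00 (2.00-fold, adjusted p = 2.3e-05). Under scaling to the median of all probes the rise of Ndufs7 with LF3 was 0.27 and no longer passed (adjusted p = 0.198). It was the only member called in opposite directions by the inhibitors.

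The other core subunits of complex I that were tested moved less. Ndufv2, an iron-sulphur subunit of the NADH-oxidizing arm, read 11.91, 11.63 and 12.00 with LF3 and 11.28, 11.52 and 11.28 with ICG-001, against 11.66, 11.79 and 11.97 with DMSO. The ICG-001 arrays lay below both other groups, with a difference of -0.44 ± 0.14 (SE) from DMSO (adjusted p = 0.02). That call was lost without DMSO array 3 (adjusted p = 0.0826), ICG-001 array 1 (0.0702) or ICG-001 array 3 (0.0711). Ndufv1, which binds the flavin that accepts electrons from NADH, differed from DMSO by -0.08 with LF3 (95% interval -0.36 to 0.20) and by 0.00 with ICG-001 (-0.28 to 0.28). Ndufs3 differed by -0.29 with LF3 (adjusted p = 0.104) and 0.02 with ICG-001 (adjusted p = 0.903), and Ndufs8 by 0.25 (adjusted p = 0.124) and 0.06 (adjusted p = 0.711).

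Among the accessory subunits, Ndufb2 showed the largest gap between the inhibitors among members detected with both. It read 7.85, 7.64 and 7.84 with LF3 and 6.59, 6.48 and 6.37 with ICG-001, against 7.07, 7.69 and 7.66 with DMSO. The ICG-001 arrays were lowest, DMSO array 1 lay between them and the rest, and LF3 and the other DMSO arrays overlapped. Ndufb2 fell by 0.99 with ICG-001 (SE 0.16, 1.99-fold, adjusted p = 0.000269), differed by 0.30 with LF3 (adjusted p = 0.184), and was 2.45-fold higher with LF3 than with ICG-001 (log2 1.29, adjusted p = 3.7e-05). Ndufv3, an accessory subunit of the NADH-oxidizing arm, read 11.20, 10.90 and 11.17 with LF3 and 10.87, 10.80 and 10.94 with ICG-001, against 11.58, 11.63 and 11.29 with DMSO. Both treated groups lay below DMSO without overlap, by 0.41 with LF3 and 0.63 with ICG-001 (SE 0.13, adjusted p = 0.0382 and 0.00186). Of the other Ndufv3 probes, one gave -0.46 and -0.63 and passed in both comparisons, and a dim one gave 0.08 and -0.01 and passed in neither.

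Ndufb4 read 6.88, 7.53 and 7.10 with LF3 and 6.70, 6.83 and 6.72 with ICG-001, against 6.66, 6.64 and 6.81 with DMSO, so that every LF3 array was above the other groups and array 2 was the highest. It rose by 0.46 with LF3 (adjusted p = 0.0392). Both this call and that of Ndufv3 with LF3 were fragile: leaving out any array other than LF3 array 1 ended the Ndufb4 call (adjusted p 0.0505 to 0.164). The Ndufv3 call ended without DMSO array 1 (0.075) or 2 (0.14), ICG-001 array 2 (0.0528) or 3 (0.0503), or LF3 array 2 (0.147). With ICG-001, Ndufb3 fell by 0.44, while Ndufa7, Ndufb6 and Ndufab1, the mitochondrial acyl carrier protein, rose by 0.41, 0.39 and 0.32. Each of these 4 calls was lost when single arrays were left out: Ndufb3 without DMSO array 2 or 3 or ICG-001 array 1 or 3 (adjusted p 0.0607 to 0.0881), Ndufa7 without DMSO array 2 or 3 or ICG-001 array 2 or 3 (0.0575 to 0.105), Ndufb6 without ICG-001 array 3 (0.0566), and Ndufab1 without DMSO array 1 or 2 or any ICG-001 array (0.0582 to 0.0963). Ndufab1 was also 0.49 lower with LF3 than with ICG-001 (adjusted p = 0.00295), a call that held in every alternative tried.

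Probes of some complex I genes disagreed. The second probe of Ndufb6 gave 0.19 with ICG-001 and did not pass (adjusted p = 0.4). For Ndufc1 the brighter probe gave 0.02 in LF3 minus DMSO and 0.08 in LF3 minus ICG-001, while the dimmer one gave 0.33 and 0.48 and passed in both (adjusted p = 0.0405 and 0.00292). For Ndufa5 the brighter probe gave 0.02 between the inhibitors and the dimmer one 0.41 (adjusted p = 0.0413). Ndufa4, now known to work as a subunit of complex IV, differed from DMSO by -0.11 with LF3 (95% interval -0.38 to 0.17) and -0.19 with ICG-001 (-0.46 to 0.09).

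The assembly factors of complex I included the largest rises in the whole set. Ndufaf4, needed for early assembly steps, read 10.29, 10.22 and 10.55 with LF3 and 10.94, 10.80 and 10.88 with ICG-001, against 9.87, 9.83 and 10.11 with DMSO. The 3 groups did not overlap, with ICG-001 highest and DMSO lowest. Ndufaf4 rose by 0.94 with ICG-001 (1.91-fold, adjusted p = 7.2e-05) and by 0.42 with LF3 (1.34-fold, adjusted p = 0.0312), with an SE of 0.13, and was 0.52 lower with LF3 than with ICG-001 (adjusted p = 0.00536). The LF3 call was lost without DMSO array 1 (adjusted p = 0.0577), DMSO array 2 (0.116) or LF3 array 3 (0.0942), and under scaling to the median of all probes (0.19, adjusted p = 0.38). Ndufaf5, which in human cells hydroxylates an arginine of the NDUFS7 subunit, read 8.82, 8.74 and 8.62 with LF3 and 8.50, 8.24 and 8.51 with ICG-001, against 8.04, 8.12 and 8.13 with DMSO. Here LF3 was highest and DMSO lowest, again without overlap.

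Ndufaf5 rose by 0.63 with LF3 (1.55-fold, SE 0.12, adjusted p = 0.00257), and a second probe gave 0.78 (adjusted p = 0.00398). With arrays scaled to the median of all probes, Ndufaf5 was 0.32 higher with LF3 and did not pass (adjusted p = 0.13). With ICG-001 Ndufaf5 was 0.32 higher (adjusted p = 0.0482), which was lost in 14 of 22 alternatives, without each DMSO array and without ICG-001 array 1 or 3 and LF3 array 1 or 2 among them (adjusted p 0.0558 to 0.161), and the second probe gave 0.31 and did not pass (adjusted p = 0.139). Ndufaf1, Ndufaf3 and Ndufaf7 passed in neither comparison with DMSO, with differences of 0.25, 0.03 and 0.09 with LF3 and 0.22, -0.07 and 0.24 with ICG-001. Ndufaf3 was detected on 1 LF3 array, 2 ICG-001 arrays and 2 DMSO arrays.

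Complex II, succinate dehydrogenase, also serves the tricarboxylic acid (TCA) cycle, and 3 of its genes were tested. Sdhd, a membrane anchor, read 8.00, 8.00 and 7.87 with LF3 and 7.40, 7.34 and 7.01 with ICG-001, against 8.42, 8.24 and 8.00 with DMSO. The ICG-001 arrays lay below both other groups, and LF3 and DMSO met at 8.00. Sdhd fell by 0.97 with ICG-001 (1.96-fold, SE 0.14, adjusted p = 0.000126), differed by -0.27 with LF3 (adjusted p = 0.195) and was 0.71 higher with LF3 than with ICG-001 (adjusted p = 0.00143). The other membrane anchor, Sdhc, did not pass in any comparison, with -0.05 for LF3 (95% interval -0.33 to 0.22) and 0.13 for ICG-001 (-0.14 to 0.40) against DMSO.

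Sdhb, the iron-sulphur subunit, read 10.84, 10.90 and 11.14 with LF3 and 10.53, 10.56 and 10.64 with ICG-001, against 10.80, 10.53 and 10.56 with DMSO. The LF3 arrays were the highest, and the other groups overlapped. The difference was 0.33 for LF3 minus DMSO (adjusted p = 0.0747), -0.05 for ICG-001 minus DMSO (adjusted p = 0.776) and 0.38 between the inhibitors (adjusted p = 0.0262). The last was lost without ICG-001 array 1 (adjusted p = 0.0772), ICG-001 array 2 (0.0741) or LF3 array 3 (0.0844), and under scaling to the median of all probes (0.26, adjusted p = 0.202); a second Sdhb probe gave 0.20 and did not pass (adjusted p = 0.197).

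In complex III, the cytochrome bc1 complex, 1 of 6 tested members (16.7%) passed against DMSO with each inhibitor, and it was the same gene. Cyc1, for cytochrome c1 of this complex, is no member by its symbol and is given below with the electron carriers. Over all genes tested the shares were 22.4% with LF3 and 37.7% with ICG-001. Uqcrh, the hinge protein that binds cytochrome c1, read 12.21, 12.19 and 12.08 with LF3 and 11.29, 11.67 and 11.75 with ICG-001, against 12.66, 12.98 and 13.04 with DMSO. DMSO was highest, LF3 between and ICG-001 lowest, with no overlap. Uqcrh fell by 1.32 with ICG-001 (2.50-fold, adjusted p = 1.1e-05) and by 0.73 with LF3 (1.66-fold, adjusted p = 0.00327), with an SE of 0.14, in both comparisons the largest fall among members detected on arrays of both groups. It was 0.59 higher with LF3 than with ICG-001 (adjusted p = 0.0054), and these 3 calls held in all 22 alternatives.

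The other complex III genes stayed closer to DMSO. The core proteins Uqcrc1 and Uqcrc2 gave -0.21 (95% interval -0.53 to 0.11) and 0.14 (-0.11 to 0.40) with LF3, and -0.11 (-0.43 to 0.21) and 0.16 (-0.10 to 0.42) with ICG-001. Uqcrb gave -0.21 and -0.17 (adjusted p = 0.334 and 0.374), and Uqcr11 gave -0.01 and 0.25 (adjusted p = 0.976 and 0.0886). Uqcr10, a small subunit, was 0.35 lower with LF3 than with ICG-001 (adjusted p = 0.0353). That call was lost without ICG-001 array 1 or 2 or LF3 array 2 or 3 (adjusted p 0.0645 to 0.133). Scaling to the median of all probes (-0.33, adjusted p = 0.115) or of probes detected on all arrays (-0.13, 0.434) also ended it. So did cyclic loess in place of quantile normalization (-0.29, adjusted p = 0.0818). The second Uqcr10 probe gave -0.26 (adjusted p = 0.114).

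Complex IV, cytochrome c oxidase, had the highest share of calls with ICG-001 of the 5 complexes. Of its 11 tested genes 2 rose and 5 fell with ICG-001, 63.6% beside 37.7% of all genes; with LF3, 1 fell (9.09%, beside 22.4%). One of the falls with ICG-001 is that of Cox7a1, which was tested only because LF3 and DMSO arrays detected it. Another is that of Cox7a2l, an assembly factor counted here by its symbol, while Ndufa4, which did not pass, was counted with complex I. Scaled to the median of all probes, 0 rose and 5 fell. The complex median was -0.25 with ICG-001, 0.08 with LF3 and 0.43 between the inhibitors. It depended on which dim genes were kept. For the 10 genes detected on all 9 arrays it was -0.12 with ICG-001 and 0.25 between the inhibitors. With no filter on dim probes (16 genes) these medians were -0.01 and 0.07. Cox7a2, the widely expressed isoform of subunit VIIa, read 7.91, 7.99 and 7.78 with LF3 and 7.40, 7.24 and 7.43 with ICG-001, against 8.41, 8.50 and 8.39 with DMSO. The groups did not overlap and stood in the same order as for Uqcrh. Cox7a2 fell by 1.08 with ICG-001 (2.11-fold, adjusted p = 9e-06) and by 0.54 with LF3 (1.45-fold, adjusted p = 0.00497), with an SE of 0.11, and was 0.54 higher with LF3 than with ICG-001 (adjusted p = 0.00224). The last did not pass under scaling to the median of all probes (0.33, adjusted p = 0.0955).

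Cox7a1, the isoform typical of heart and skeletal muscle, read 5.95, 5.95 and 5.80 with LF3 and 4.97, 4.70 and 5.05 with ICG-001, against 6.10, 6.09 and 5.86 with DMSO. It was detected on every LF3 and DMSO array and on no ICG-001 array, where its values give only a bound. Each ICG-001 array was set at its dimmest detected signal, or at the signal of Cox7a1 where that was brighter, and on this basis Cox7a1 was at least 1.62-fold lower with ICG-001 than with DMSO and at least 1.49-fold higher with LF3 than with ICG-001. The fit used the measured values, which are below detection with ICG-001, and its differences of -1.11 (adjusted p = 1.8e-05) and 0.99 (adjusted p = 5.5e-05) are no test of these bounds. LF3 and DMSO overlapped, with a difference of -0.11 (adjusted p = 0.568). Of 12 skeletal muscle markers on the array 10 were detected on no array, Ckm, Acta1 and Myog among them, and none of 4 heart muscle markers was detected. The one muscle marker tested, Tnni2, had normalized intensities of 52.6 to 68.8 with LF3 and 46.8 to 49.9 with ICG-001, against 70.7 to 101 with DMSO; its part in the Cox7a1 result was not tested.

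Cox6c, a small subunit with no isoform pair in this list, read 12.25, 12.07 and 12.22 with LF3 and 11.37, 11.40 and 11.17 with ICG-001, against 11.98, 12.13 and 11.98 with DMSO. ICG-001 stood below the other groups, which overlapped. Cox6c fell by 0.71 with ICG-001 (1.64-fold, SE 0.12, adjusted p = 0.00036) and was 0.86 higher with LF3 than with ICG-001 (adjusted p = 8.7e-05). Cox4i1, the common isoform of subunit IV, read 12.84, 12.79 and 12.95 with LF3 and 12.18, 12.20 and 12.00 with ICG-001, against 12.60, 12.77 and 12.91 with DMSO. It had the same pattern, with a fall of 0.64 with ICG-001 (1.56-fold, adjusted p = 0.00106) and a difference of 0.73 between the inhibitors (adjusted p = 0.000399). Cox7a2l, a factor that joins complexes III and IV into supercomplexes, fell by 0.61 with ICG-001 (adjusted p = 0.00201) and gave -0.10 with LF3 (adjusted p = 0.626).

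Other complex IV genes rose with ICG-001. Cox6b1, which faces the intermembrane space, read 12.79, 12.90 and 12.91 with LF3 and 13.22, 13.25 and 13.45 with ICG-001, against 12.95, 12.87 and 12.74 with DMSO. Only the ICG-001 arrays stood apart, on the high side, by 0.45 over DMSO (1.37-fold, SE 0.12, adjusted p = 0.00773), and LF3 was 0.45 below ICG-001 (adjusted p = 0.00802; -0.24 and 0.137 when scaled to probes detected on all arrays). Cox5b, a zinc-binding subunit, read 13.19, 13.28 and 13.20 with LF3 and 13.49, 13.43 and 13.52 with ICG-001, against 13.07, 13.19 and 12.98 with DMSO. It rose by 0.40 with ICG-001 (adjusted p = 0.0111) and gave 0.15 with LF3 (adjusted p = 0.371).

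The rises of Cox6b1 and Cox5b with ICG-001 did not pass under scaling to the median of all probes, where they were 0.35 (adjusted p = 0.0769) and 0.31 (adjusted p = 0.119). Cox5a, Cox7c and Cox8a passed in no comparison; Cox8a gave 0.06 with LF3 (95% interval -0.19 to 0.31) and 0.09 with ICG-001 (-0.16 to 0.34). Cox7b was 0.43 higher with LF3 than with ICG-001 (adjusted p = 0.0478), a call lost in 10 of 22 alternatives, among them without DMSO array 2 (adjusted p = 0.0535), ICG-001 array 2 (0.159) or 3 (0.152), or LF3 array 1 (0.0775) or 2 (0.184). Where a second isoform was on the array (Cox4i2, Cox6b2, Cox7b2, Cox8b and Cox8c), it was detected on no array, so subunit VIIa was the one pair in the list with both isoforms measured.

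**Figure D2:**
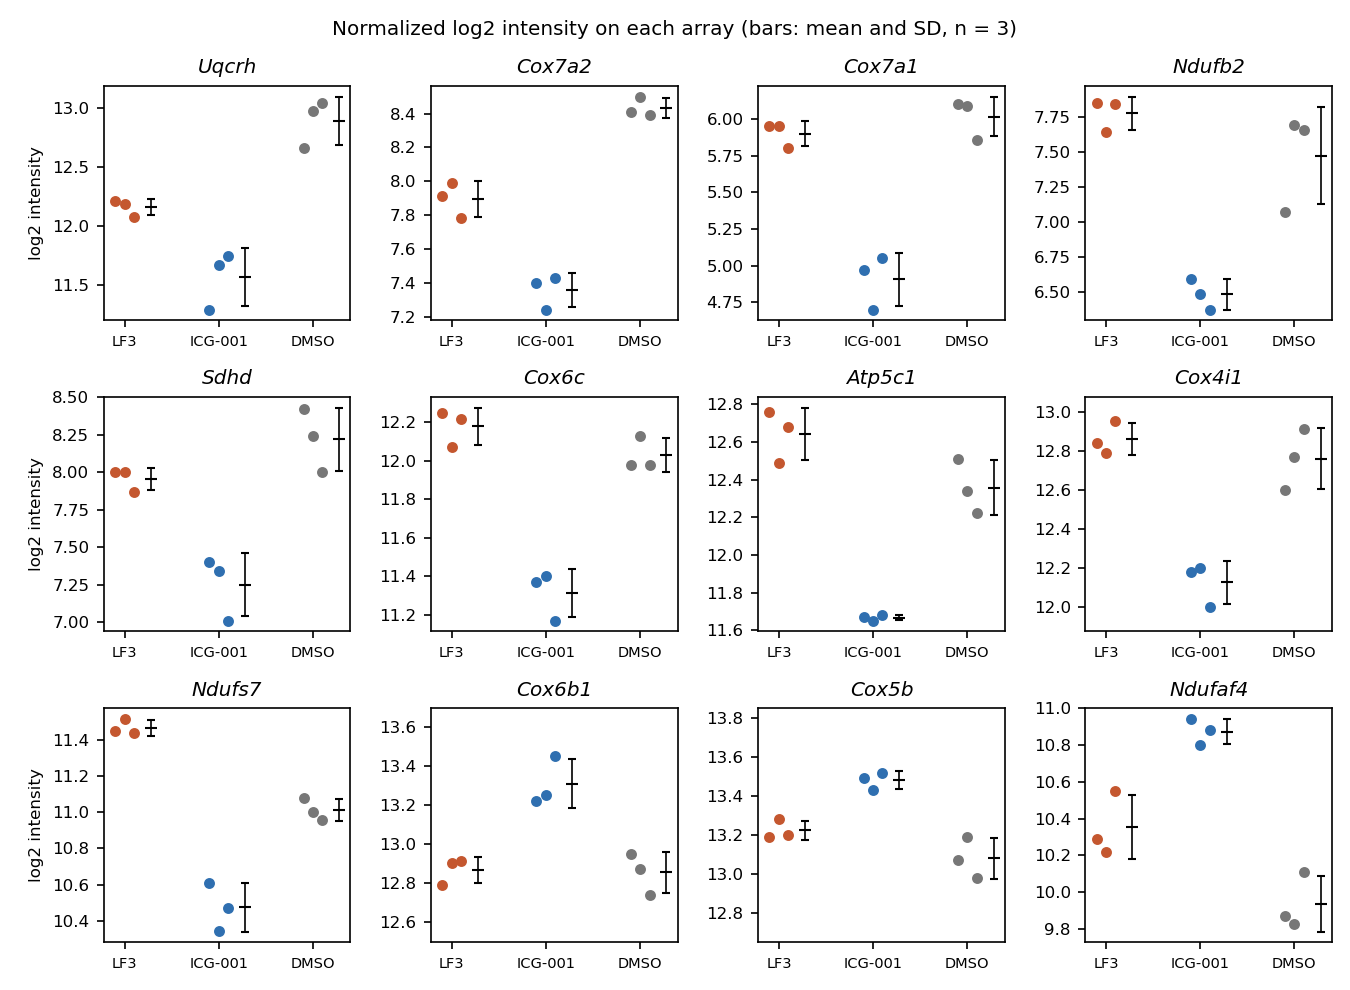
Normalized log2 intensity of 12 genes on each array, with LF3, ICG-001 and DMSO from left to right; points are arrays and bars the mean and SD of 3, on vertical axes that differ between panels and do not start at 0. Uqcrh and Cox7a2 are lower with LF3 than with DMSO and lowest with ICG-001, Ndufs7 has LF3 above and ICG-001 below DMSO, and Cox6b1, Cox5b and Ndufaf4 are highest with ICG-001; Cox7a1 was detected on no ICG-001 array.

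The ATP synthase gave 15 tested genes. None passed with LF3 at an adjusted p under 0.05 in limma, and 2 fell with ICG-001 (13.3%), beside 22.4% and 37.7% of all genes tested. At an unadjusted p under 0.05 there were 5 with LF3, a count not made over all genes. With LF3, 3 rose and 0 fell under scaling to probes detected on all arrays, 2 and 2 passed with a trend in eBayes, 2 and 1 with array weights or without background correction, and 2 and 0 without DMSO array 1. Atp5c1, the γ subunit that forms the rotating shaft, read 12.76, 12.49 and 12.68 with LF3 and 11.67, 11.65 and 11.68 with ICG-001, against 12.51, 12.34 and 12.22 with DMSO. The ICG-001 arrays were nearly equal and lay below all others, while LF3 and DMSO overlapped. Atp5c1 fell by 0.69 with ICG-001 (1.62-fold, SE 0.12, adjusted p = 0.000536), gave 0.29 with LF3 (adjusted p = 0.103), and was 1.97-fold higher with LF3 than with ICG-001 (log2 0.98, adjusted p = 3.8e-05). Atp5mpl, a small membrane subunit, read 13.14, 12.91 and 13.12 with LF3 and 12.60, 12.65 and 12.48 with ICG-001, against 13.13, 13.14 and 12.92 with DMSO. ICG-001 was below the other groups, by 0.48 from DMSO (adjusted p = 0.00609).

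The remaining subunits of the catalytic head did not pass in any comparison, though Atp5a1 and Atp5b lay close to the threshold between the inhibitors. Atp5b, the catalytic β subunit, differed from DMSO by 0.04 with LF3 (95% interval -0.21 to 0.28) and -0.24 with ICG-001 (-0.48 to 0.01). LF3 minus ICG-001 was 0.27 for Atp5b (adjusted p = 0.0721), which passed in 8 of 22 alternatives, among them scaling to probes detected on all arrays (0.55, adjusted p = 0.00497). For Atp5a1, the α subunit, it was 0.45 (adjusted p = 0.0538), which passed in 10 of 22, the replicate block among them (adjusted p = 0.0466). Against DMSO Atp5a1 gave 0.15 and -0.29, Atp5d gave 0.19 and 0.01, and Atp5e gave 0.39 and 0.13 (adjusted p = 0.0894 and 0.547). The c subunit, whose ring turns in the membrane, is encoded by several genes for the same mature protein. Atp5g1, Atp5g2 and Atp5g3 gave -0.13, 0.17 and -0.27 with LF3 and 0.10, 0.13 and -0.19 with ICG-001, and none passed; Atp5g3 had an unadjusted p under 0.05 with LF3.

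In the stalk and the membrane part, Atp5o, which links the head to the stalk, gave 0.39 with LF3 (adjusted p = 0.0723) and 0.02 with ICG-001 (adjusted p = 0.932). Atp5j2 read 13.07, 12.92 and 13.01 with LF3, 13.48, 13.49 and 13.33 with ICG-001 and 13.22, 13.34 and 13.32 with DMSO. Its LF3 arrays were lowest, and it was 0.43 lower with LF3 than with ICG-001 (adjusted p = 0.00743), while neither difference from DMSO passed (-0.29 with LF3, adjusted p = 0.0735, and 0.14 with ICG-001, adjusted p = 0.362). The call between the inhibitors was lost only under scaling to probes detected on all arrays (-0.23, adjusted p = 0.133). Both tested probes of Atp5j disagreed with ICG-001: the brighter gave -0.17 (adjusted p = 0.26) and the dimmer -0.59 (adjusted p = 0.00307).

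The direct comparison of the inhibitors is the one that asks whether LF3 and ICG-001 act differently on these genes, and by complex it gave 11 higher and 3 lower with LF3 than with ICG-001 among 39 genes of complex I, 2 and 0 of 3 in complex II, 1 and 1 of 6 in complex III, 6 and 1 of 11 in complex IV, and 2 and 1 of 15 in complex V, where 20.2% of all genes were higher and 19.5% lower. Scaled to the median of all probes, the counts were 2 and 4 in complex I, 1 and 0 in complex II, 1 and 0 in complex III, 3 and 1 in complex IV, and 2 and 1 in complex V. They were 7 and 2 in complex I without ICG-001 array 3, and 4 and 1 in complex V without DMSO array 1. Besides the genes above, Ndufa3, Ndufa9, Ndufb7, Ndufb10 and Ndufa12 were higher with LF3, by 0.43 to 0.58, and Ndufa1 was 0.35 lower. Ndufb3, Ndufb4, Ndufv2, Cox7a2l and Atp5mpl, described above against DMSO, were also higher with LF3 than with ICG-001, by 0.42 to 0.51; of these, Ndufb3 was lost without ICG-001 array 1 (adjusted p = 0.0669) and Ndufb4 without any ICG-001 array or LF3 array 2 or 3 (0.0501 to 0.177). Ndufb10 was lost without ICG-001 array 2 or 3 or LF3 array 3 (adjusted p 0.0556 to 0.0735), Ndufa12 without the same arrays (0.0522 to 0.084), and Ndufa1 without any ICG-001 array or LF3 array 2 or 3 (0.0525 to 0.0667). Ndufb11 was detected on 2 LF3 arrays and no ICG-001 array. It read 5.27, 5.33 and 5.76 with LF3, not all detected, beside a bound of 5.32 for ICG-001, so no least fold is given. Its fitted difference, which rests on values below detection, was 0.51 (adjusted p = 0.0243). That call did not pass without ICG-001 array 1 (0.115), ICG-001 array 3 (0.0547) or LF3 array 3 (0.0956). When all probes set the median used for scaling, Ndufa3, Ndufa9, Ndufa12, Ndufb3, Ndufb4, Ndufb7, Ndufb10, Ndufb11, Ndufv2 and Cox7a2l did not pass, with differences of 0.24 to 0.41 (adjusted p 0.0538 to 0.266). The first counts by complex above include the fitted calls of Ndufb11 in complex I and Cox7a1 in complex IV. Of the 28 calls, 11 held in every alternative in which the gene was tested, the fitted call of Cox7a1 among them.

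**Figure D3:**
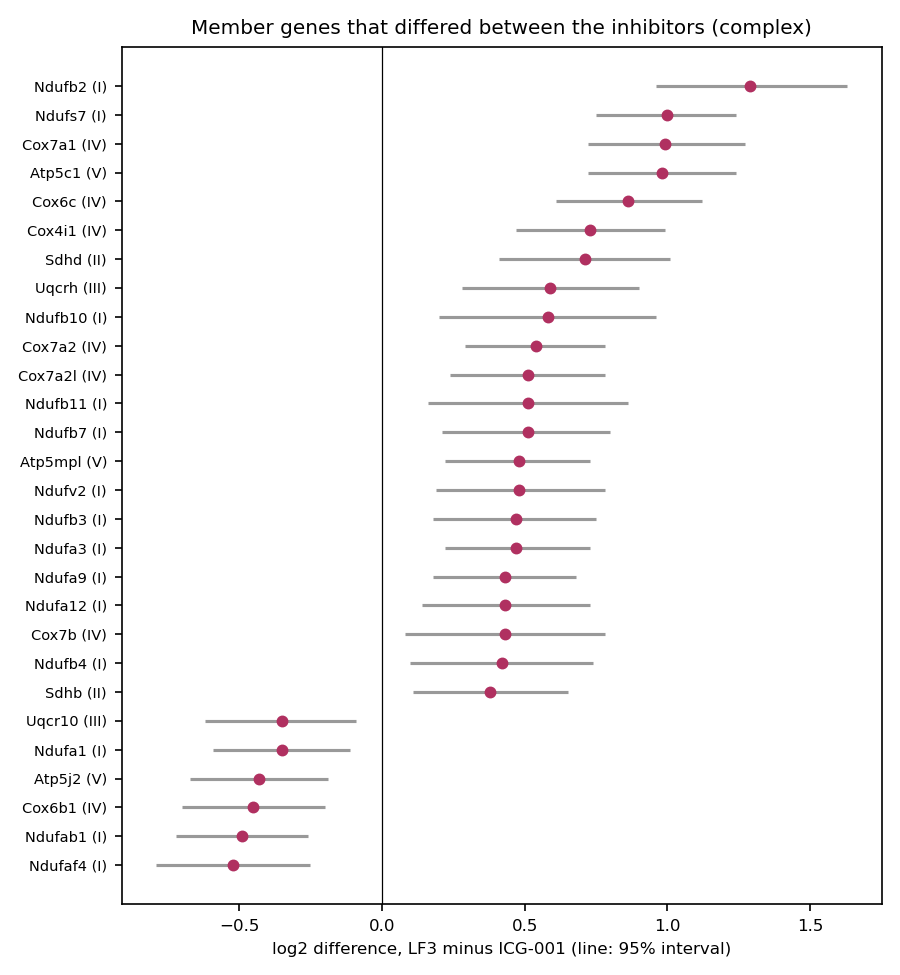
Log2 difference, LF3 minus ICG-001, of the 28 genes that passed, with the complex in brackets; points are estimates from 3 arrays per group and lines the 95% intervals. Of these, 22 lie above 0, from Ndufb2 at 1.29 downward, and 6 below, to Ndufaf4 at -0.52; Cox7a1 and Ndufb11 were detected on no ICG-001 array, and their points are fitted values.

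Genes around the chain were described from 4 further lists. Of 25 tested genes for assembly and biogenesis of the complexes, 6 rose and 1 fell with LF3, and 7 rose and 1 fell with ICG-001, where 22.4% and 37.7% of all genes passed. Scaled to the median of all probes, the counts were 1 and 3 with LF3 and 3 and 2 with ICG-001. Without DMSO array 2 or 3 they were 3 and 1 or 2 and 1 with LF3, and without DMSO array 3 or ICG-001 array 3 they were 4 and 1 with ICG-001. Cox18, which inserts a subunit of complex IV into the membrane, read 10.28, 10.25 and 10.33 with LF3 and 10.68, 10.66 and 10.63 with ICG-001, against 9.66, 9.77 and 9.77 with DMSO. The groups did not overlap, and Cox18 rose by 0.55 with LF3 (adjusted p = 0.00278) and 0.92 with ICG-001 (adjusted p = 1.75e-05); the LF3 rise did not pass when scaled to the median of all probes (0.33, adjusted p = 0.103). Surf1, an assembly factor of complex IV, rose by 0.79 with LF3 (adjusted p = 0.00505), and Cox20, another, fell by 0.65 (adjusted p = 0.00462). With ICG-001, Foxred1 (complex I assembly) rose by 0.87 and Cox10 (haem synthesis for complex IV) by 0.64 (adjusted p = 0.000264 and 0.000398).

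Of 13 tested genes for electron carriers, 3 rose with LF3, and 4 rose and 1 fell with ICG-001, where 22.4% and 37.7% of all genes passed. Without DMSO array 2 or 3 or ICG-001 array 3, 2 rose and 1 fell with ICG-001, and without DMSO array 2 or LF3 array 2 or 3, 1 rose with LF3. Coq10b, which binds ubiquinone, rose by 0.41 with LF3 (adjusted p = 0.0294) and 1.08 with ICG-001 (adjusted p = 1.67e-05). Coq5, a methyltransferase of ubiquinone synthesis, rose by 0.69 with LF3 (adjusted p = 0.00274), as did Cyc1, cytochrome c1 of complex III, by 0.39 (adjusted p = 0.0327). The LF3 calls of Coq10b and Cyc1 were lost when single arrays were left out: Coq10b without DMSO array 1 or 2 or LF3 array 2 or 3 (adjusted p 0.0631 to 0.0859), and Cyc1 without DMSO array 2 or 3 or any LF3 array (0.0563 to 0.124). Scaled to the median of all probes, 1 gene of the list rose and 3 fell with LF3, and 2 rose and 1 fell with ICG-001. With ICG-001, Coq4 rose by 0.54 and Coq7 fell by 0.51 (adjusted p = 0.00712 and 0.00416).

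The list of TCA cycle and pyruvate entry genes had 18 tested members, of which 3 rose and 1 fell with LF3, and none rose and 10 fell with ICG-001, where 22.4% and 37.7% of all genes passed. With LF3 none rose and 5 fell when scaled to the median of all probes (list median -0.24), and none passed without DMSO array 2 or 3. Its median was -0.01 with LF3 and -0.41 with ICG-001, beside medians of 0.01 and 0 over all genes, and 9 were higher and 1 lower with LF3 than with ICG-001. Over the scalings tried the falls with ICG-001 numbered 9 to 12, without DMSO array 3 they numbered 6, and the calls between the inhibitors were 4 higher and 1 lower when scaled to the median of all probes. Fh1, fumarase, read 10.30, 9.96 and 10.37 with LF3 and 9.75, 9.75 and 9.79 with ICG-001, against 10.39, 10.55 and 10.53 with DMSO, and fell by 0.73 with ICG-001 (adjusted p = 0.000519). Idh3a, a catalytic subunit of the NAD-linked isocitrate dehydrogenase, read 8.39, 8.35 and 8.28 with LF3 and 7.80, 7.71 and 7.71 with ICG-001, against 8.54, 8.33 and 8.27 with DMSO. ICG-001 alone stood apart, lower by 0.64 (adjusted p = 0.000675).

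Pdk1, a kinase that inhibits pyruvate dehydrogenase and so is no enzyme of the cycle, fell by 0.99 with LF3 (adjusted p = 0.0142) and 1.41 with ICG-001 (adjusted p = 0.000716). With LF3, Mdh2 and Idh3b rose by 0.44 and 0.39 (adjusted p = 0.0321 and 0.0327). These LF3 calls were lost when single arrays were left out. Pdk1 did not pass without DMSO array 2 or 3 or LF3 array 2 (-0.87 to -0.78, adjusted p 0.0611 to 0.0721). Mdh2 did not pass without any one DMSO array (0.43 to 0.46, adjusted p 0.0534 to 0.0872) or LF3 array 3 (0.28, 0.0976). Idh3b did not pass without DMSO array 2 or 3 or LF3 array 1 or 2 (0.31 to 0.41, adjusted p 0.0552 to 0.136). Under scaling to the median of all probes, Mdh2 gave 0.24 (adjusted p = 0.256) and Idh3b 0.18 (adjusted p = 0.393).

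Among 10 tested regulators of mitochondrial genes, 2 rose and 2 fell with LF3, and 2 rose with ICG-001, where 22.4% and 37.7% of all genes passed. With LF3, 1 rose and 0 fell without DMSO array 2 or LF3 array 2, and 2 rose and 0 fell without DMSO array 3, ICG-001 array 1 or 2, or LF3 array 3. Gabpb1, a subunit of the ETS factor GABP, rose by 0.67 with LF3 (adjusted p = 0.00213) and 0.48 with ICG-001 (adjusted p = 0.00773), and Esrra rose by 0.36 with ICG-001 (adjusted p = 0.0254). Hif1a rose by 0.48 with LF3 (adjusted p = 0.0187). Tfam, which packages mitochondrial DNA and starts its transcription, fell by 0.36 with LF3 (adjusted p = 0.0373) and gave -0.21 with ICG-001 (adjusted p = 0.158). Hif1a was lost without DMSO array 2 (adjusted p = 0.0949) or LF3 array 2 (0.0679), Tfam without DMSO array 2 or 3, ICG-001 array 1 or 2 or any LF3 array (0.05 to 0.138), and Esrra without DMSO array 3 or ICG-001 array 1 or 2 (0.0685 to 0.0842). Gabpb1 did not pass with either inhibitor when scaled to the median of all probes (adjusted p = 0.0771 with LF3 and 0.0709 with ICG-001). Under that scaling 0 regulators rose and 7 fell with LF3, and none passed with ICG-001. With the mean of all kept probes of a gene, 1 regulator rose and 2 fell with ICG-001. There Gabpb1 gave 0.26 and did not pass (adjusted p = 0.0657), and Tfam fell by 0.32 (adjusted p = 0.0393).

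**Figure D4:**
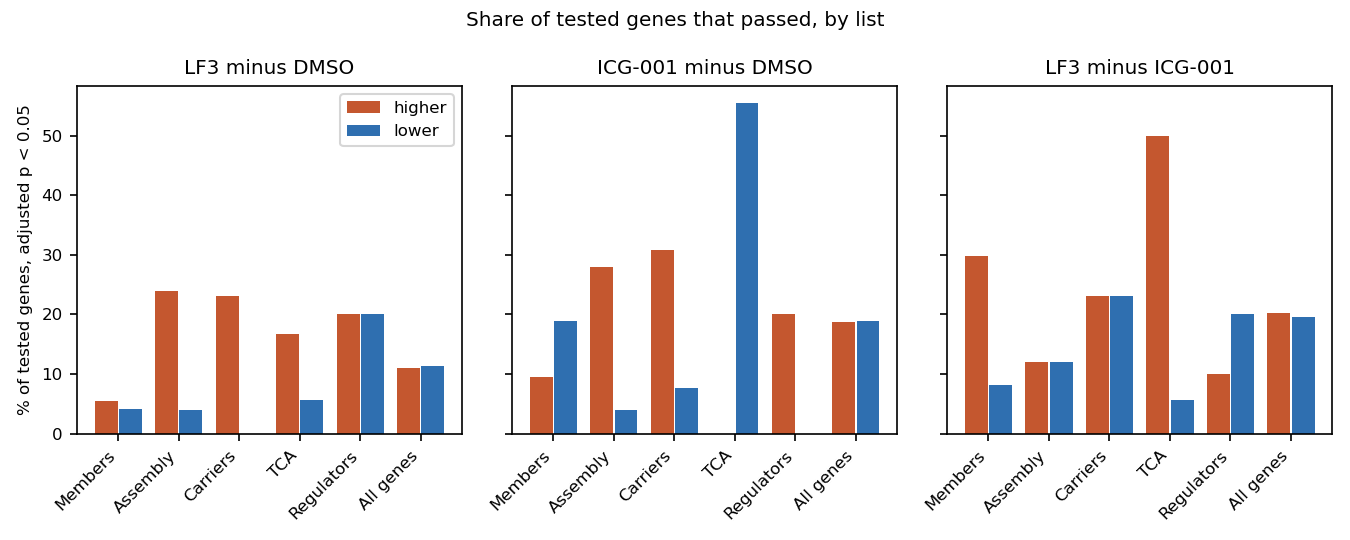
Percentage of tested genes that passed at an adjusted p under 0.05, higher and lower, for the 74 member genes, 25 assembly genes, 13 electron carrier genes, 18 TCA cycle genes, 10 regulators and all 7354 genes tested, in each comparison. With LF3 the members' bars (4 higher and 3 lower of 74) are below those of all genes (11% and 11.4%), and with ICG-001 the TCA bar holds 10 genes lower and none higher.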

How the data were processed

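Per the labels' protocols, biotin-labelled cRNA was made from total RNA and hybridised to Illumina arrays; the submitters' processing notes name GenomeStudio 2010.1. The deposited intensity of each probe is, per the file headers, a linear signal not normalized between arrays. Each deposited intensity is followed by a detection p-value, matched to its array by place because these columns share one name. The authors' processed intensities, whose normalization is not given in the sources used here, served as an alternative, with values under 16 set to 16. Groups came from the treatment labels.

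Intensities were corrected with limma 3.58.1 (R 4.3.3; normexp by detection p-value, offset 16, which shrinks differences of dim probes), log2-transformed and quantile-normalized. The filter for dim probes (detected at 0.01 on 3 or more of 9 arrays) kept 10830 probes, with 7354 named genes. All 9 arrays entered one fit (lmFit, eBayes) with group only; two-sided p-values were adjusted by Benjamini-Hochberg over all probes kept. Symbols came from the platform annotation and can be old. The fit was tested on simulated data drawn with the fit's moderated spread; a first version with each probe's raw spread recovered fewer changes, and the pass mark was then lowered. The number of arrays limits the precision: the median SE of a member's difference was 0.126.

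Named genes were the 3 with the lowest p per complex and comparison, isoform sets, members whose probes disagree, and the 3 lowest per further list against DMSO; other genes named, their roles and the printed promoters were chosen after their values were seen. The members and lists were chosen with earlier results of these data known. Alternatives covered scaling, background, filter, weights, trend, probe choice, the authors' values, the groups fitted, a replicate block and leaving out each array.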

Additional observations from a re-analysis of the deposited data

Results flagged for a closer look

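Ndufs7 was picked out because the inhibitors moved it in opposite directions from DMSO and the difference between them was itself tested: LF3 minus ICG-001 was 1.00 on the log2 scale (adjusted p = 2.3e-05, limma), with 0.46 for LF3 minus DMSO and -0.54 for ICG-001 minus DMSO. Every LF3 array was above, and every ICG-001 array below, every DMSO array. The difference between the inhibitors was 0.88 to 1.07 over the 22 alternatives tried and passed in all of them. The rise with LF3 passed in 21 of the 22. Scaled to the median of all probes it was 0.27 and did not pass (adjusted p = 0.198, limma).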

How the results depend on the processing

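The count of members that passed was 7 for LF3 minus DMSO. It was 15 (20.3%, beside 23.7% of all genes) with scaling to the median of probes detected on all arrays. It was 12 (16.2%, beside 24.8%) without background correction and 11 (14.9%, beside 24.8%) with an offset of 50. Array weights gave 14 (18.9%, beside 30%) and a trend in eBayes 13 (17.6%, beside 24.6%). With only the 2 groups fitted 4 passed (5.41%, beside 16.4%), and with no filter on dim probes 6 (7.23%, beside 8.26%). Leaving out single arrays gave 4 to 8 (5.41% to 10.8%, beside 12% to 25.8%). For ICG-001 minus DMSO the count of 21 was 15 to 26 over all alternatives (15 to 23 leaving out single arrays). For LF3 minus ICG-001 the count of 28 was 15 to 35 over all alternatives. It was 15 with scaling to the median of all probes (20.3%, beside 36.4% of all genes) and 35 with a trend in eBayes (47.3%, beside 41.6%). Leaving out single arrays gave 21 to 32. The cause of these changes was not tested, and where an array was left out the sample was smaller as well. No called gene changed sign in any alternative. Calls that held in each of the 22 alternatives that tested the gene numbered 2 of 7, 13 of 21 and 11 of 28 for the 3 comparisons in that order. The last 2 counts include Cox7a1, whose fitted values are below detection with ICG-001. Same-numbered arrays correlated at -0.233 to 0.143 in their deviations from the group means, so the numbers were not taken as pairs; with a replicate block 6, 19 and 28 members passed. Signal over background limits dim probes: 9 genes were detected on no array, and Cox7a1 and Ndufb11 have only a bound with ICG-001.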
